A study of Rattus norvegicus with 21 samples.

Results

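Pituitary adenomas of MENX rats with high levels of the growth hormone gene Gh1 and of Pou1f1, which encodes the transcription factor PIT-1, were set against adenomas with low levels of both. The 16 arrays of lesions carried 9 sample numbers, and lesions that shared a number were averaged, so that each number counted as 1 adenoma. The score of an adenoma was the mean log2 value of Gh1 and Pou1f1. The 4 adenomas with the highest score (adenomas 3, 4, 5 and 6, from 8 arrays) are called PIT-1-high here and the 4 with the lowest score (adenomas 2, 7, 8 and 9, from 6 arrays) PIT-1-low, while adenoma 1, from 2 arrays, lay between them and entered no test. The adenomas are numbered 1 to 9 in the order of the samples in the series.

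All adenomas came from rats of a mixed Sprague–Dawley white eye/Wistar–Kyoto strain that were homozygous for a mutation of Cdkn1b, the gene of the cell cycle inhibitor p27. In this syndrome, MENX, tumors arise at several places in the anterior lobe and derive mainly from gonadotrophs, and no transgene or treatment was involved. The reference was 5 pituitaries of wild-type rats of the same strain aged 6 months, which with the 9 adenomas made 14 samples on 21 arrays. PIT-1-high adenomas were taken at 10, 7, 12 and 8 months (adenomas 3, 4, 5 and 6) and PIT-1-low ones at 10, 12, 12 and 12 months (adenomas 2, 7, 8 and 9), as the labels give it. The study's own text speaks of more rats than there are sample numbers and of a younger age than most of these labels, so a number may hold lesions of more than 1 rat, and ages are those of the labels only.

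The anterior pituitary holds several hormone-producing cell types. PIT-1 is the factor on which somatotrophs, lactotrophs and thyrotrophs depend, and it acts on the promoters of the genes of growth hormone, prolactin and the beta subunit of thyrotropin. Gonadotrophs, from which these tumors mainly derive, belong to another branch that relies on SF-1 (Nr5a1) and makes the common alpha subunit (Cga) with the beta subunits of LH and FSH. The comparison thus sorts tumors of a gonadotroph model by how much Gh1 and Pou1f1 message their RNA held. In bulk RNA, fewer cells of a type and less RNA per cell cannot be told apart.

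The values that chose the groups are given as a description. Gh1 was 13.00, 13.55, 13.76 and 13.42 on the log2 scale in adenomas 3, 4, 5 and 6, and 12.69, 11.42, 10.57 and 12.44 in adenomas 2, 7, 8 and 9. Adenomas 7 and 8 lay well below all other adenomas. Pou1f1 was 10.82, 11.62, 11.00 and 11.63 in the PIT-1-high adenomas and 9.90, 10.15, 10.50 and 10.05 in the PIT-1-low ones, a narrower spread than that of Gh1. Wild-type glands ranged from 13.79 to 14.09 for Gh1 and from 11.20 to 12.35 for Pou1f1, and 14.09 was also the highest value in the table. Thus every PIT-1-high average lay below the wild-type range for Gh1, adenoma 5 only just, whereas adenomas 4 and 6 lay within it for Pou1f1. Lesions of adenoma 5 with Gh1 at 13.83 and 14.01 lay inside the wild-type range. At the edges, adenoma 3 was just inside the high group with a score of 11.91, adenoma 1 lay outside with 11.48, and adenoma 2 was just inside the low group with 11.29. The step from adenoma 1 to adenoma 2 was small, and lesions of adenoma 3 spread across it, as its 3 lesions had Gh1 values of 13.42, 13.26 and 12.31. Ranked by Gh1 alone the groups held the same adenomas, and ranked by Pou1f1 alone adenoma 1 took the place of adenoma 8 in the low group.

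**Figure D1:**
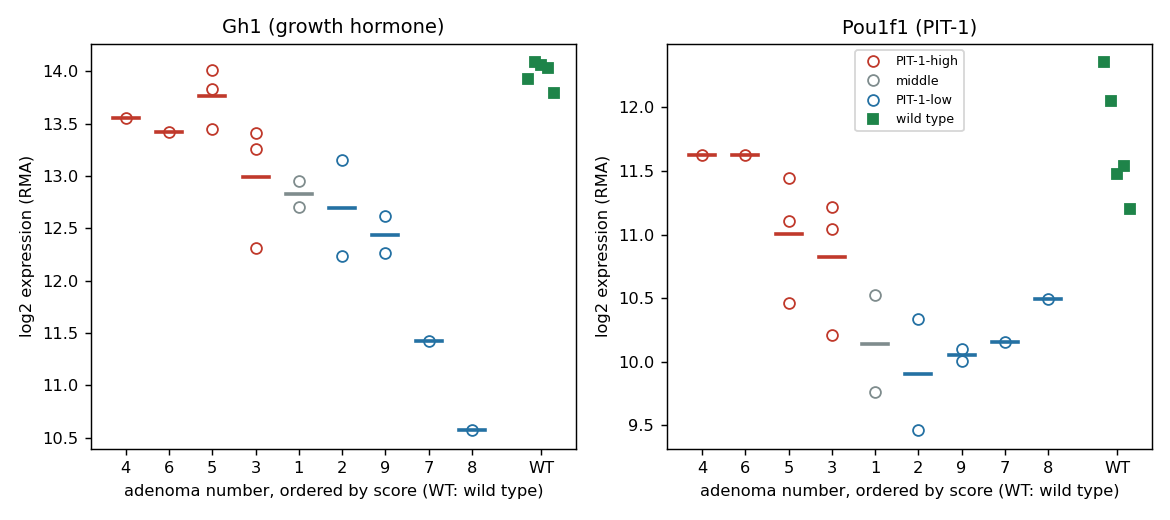
Gh1 and Pou1f1 (log2 expression) by adenoma, ordered by score from left to right, with each lesion as an open circle, the average of an adenoma as a bar and the wild-type pituitaries as squares. Adenomas 7 and 8 held the lowest Gh1 averages, 11.42 and 10.57, and the 3 lesions of adenoma 3 spread from 12.31 to 13.42.

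Age, sex and the way the sample numbers start did not split evenly. Mean age was 9.25 months in the PIT-1-high and 11.5 months in the PIT-1-low adenomas, with p = 0.257 in an exact two-sided permutation test whose smallest possible p was 0.0286. Females numbered 2 of 4 and 3 of 4 (Fisher's exact test, p = 1). Sample numbers started with 08 in 3 of 4 PIT-1-high and in 1 of 4 PIT-1-low adenomas (Fisher's exact test, p = 0.486). Adenomas 7, 8 and 9 were all from females of 12 months with numbers starting with 09, whereas adenoma 6 was the PIT-1-high one with such a number and adenoma 5 the PIT-1-high one of 12 months. Because these labels overlap with the score, differences within 08, within 09 and among adenomas of 12 months are given for the leading genes and for several lists.

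Across the 29212 probe sets other than those of the score genes, no probe set passed limma's test at an adjusted p under 0.05 in either direction (0% higher and 0% lower), and the lowest adjusted p was 0.291. At an unadjusted p under 0.05, limma gave 1132 probe sets higher and 1319 lower in the PIT-1-high adenomas, and the test named in the study's methods, run here with equal variances, gave 1114 and 1058 before and 0 after adjustment. The p-values describe an association with a score measured on the same arrays, and they rest on the spread between 8 samples. The values of the groups did not overlap for 660 probe sets that were higher in every PIT-1-high than in every PIT-1-low adenoma (2.26% of those tested) and for 593 that were lower (2.03%). Among these, 15 of the higher and 56 of the lower ones differed by over 2-fold in their means. The counts changed when single adenomas were left out. Without adenoma 2, which left adenomas 7, 8 and 9 as the low group, 14 probe sets were called higher and 185 lower; without adenoma 3, 1 was called higher and 0 lower; and without adenoma 5, 3 were called higher and 10 lower. No count below is therefore a count of genes that passed the test with all 8 adenomas, and differences are given as values.

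Among named probe sets without overlap, the largest higher difference was that of Ctxn3, which encodes cortexin 3, a small membrane protein. It was 7.67, 8.64, 8.66 and 8.88 in adenomas 3, 4, 5 and 6, and 6.92, 6.52, 6.87 and 6.75 in adenomas 2, 7, 8 and 9. The lowest PIT-1-high adenoma, adenoma 3, lay above the highest PIT-1-low one, adenoma 2, and the wild-type glands were at 9.53 ± 0.66 (SD, n = 5). The difference was 1.70 ± 0.24 (SE) on the log2 scale, a 3.25-fold difference with an adjusted p of 0.291 by limma. It was 1.41 within 08, 2.16 within 09 and 1.95 at 12 months, and Ctxn3 was called without adenoma 3. Slc14a1, a urea transporter, followed with 8.38, 8.32, 9.16 and 8.57 against 7.70, 7.21, 6.70 and 7.46, a difference of 1.34 ± 0.24 (0.92 within 08, 1.45 within 09 and 2.03 at 12 months) with wild type at 8.38 ± 0.90. Here adenoma 5 stood highest and adenoma 8 lowest.

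Agtr1b, an angiotensin II receptor that was also on the lactotroph list, was 7.34, 8.59, 6.61 and 8.10 in adenomas 3, 4, 5 and 6, and 6.53, 6.41, 6.15 and 6.23 in adenomas 2, 7, 8 and 9. Adenoma 5 cleared adenoma 2 only narrowly, and the difference was 1.33 ± 0.37, with 0.98 within 08, 1.84 within 09 and 0.35 at 12 months. Pde1a, a calmodulin-dependent phosphodiesterase, was 8.56, 9.44, 8.33 and 9.27 against 7.47, 7.92, 8.04 and 7.46, with wild type at 8.74 ± 0.59 and a difference of 1.31 within 08, 1.47 within 09 and 0.52 at 12 months. Prss8, the membrane serine protease prostasin, was 6.29, 7.05, 6.46 and 7.43 against 5.73, 5.51, 5.57 and 5.99. For both genes the wild-type mean was nearer to the PIT-1-high than to the PIT-1-low mean.

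A pair of genes for G protein-gated potassium channels, Kcnj5 and Kcnj6, lay on the same side. Kcnj5 was 7.55, 7.92, 7.54 and 7.68 in adenomas 3, 4, 5 and 6, and 7.10, 6.26, 6.01 and 7.04 in adenomas 2, 7, 8 and 9, with adenomas 7 and 8 set apart from the rest. Kcnj6 differed by 0.87 ± 0.20 (wild type 8.22 ± 0.54). Syt1, the calcium sensor of vesicle release, was 7.26, 7.71, 7.50 and 7.96 against 6.99, 7.03, 6.32 and 6.43, and the wild-type glands stood far above either group at 9.42 ± 0.54. Gpr139, an orphan receptor, differed by 1.00 ± 0.24, Nell1, a secreted protein, by 1.02 ± 0.31, and Irak3, an inhibitor of Toll-like receptor signaling, by 0.98 ± 0.23. Egfem1 was named through 2 probe sets, with differences of 1.06 ± 0.31 and 0.87 ± 0.32, of which much came from adenoma 5 with 8.00 and 8.14. Dapl1 differed by 1.03 ± 0.23. Opcml, an adhesion molecule, differed by 0.91 ± 0.35 and came from adenomas 3 and 4 (7.35 and 7.25), as adenomas 5 and 6 (5.92 and 5.96) lay at the level of adenoma 2 (5.92). Counting unnamed probe sets, 15 higher ones without overlap differed by over 2-fold, a set other than the named probe sets above. The wild-type mean was nearer to the PIT-1-high mean for 14 of these 15. The share was 64.7% over all 660 non-overlapping higher probe sets and 53.4% over all probe sets tested.

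The median difference of the 15 largest named higher probe sets was 1.03, with 0.87 within 08, 1.31 within 09 and 0.90 at 12 months. That of the 15 largest named lower ones was -1.78, with -0.87, -2.47 and -1.91. Their sign in these subsets is fixed by the choice of probe sets without overlap.

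**Figure D2:**
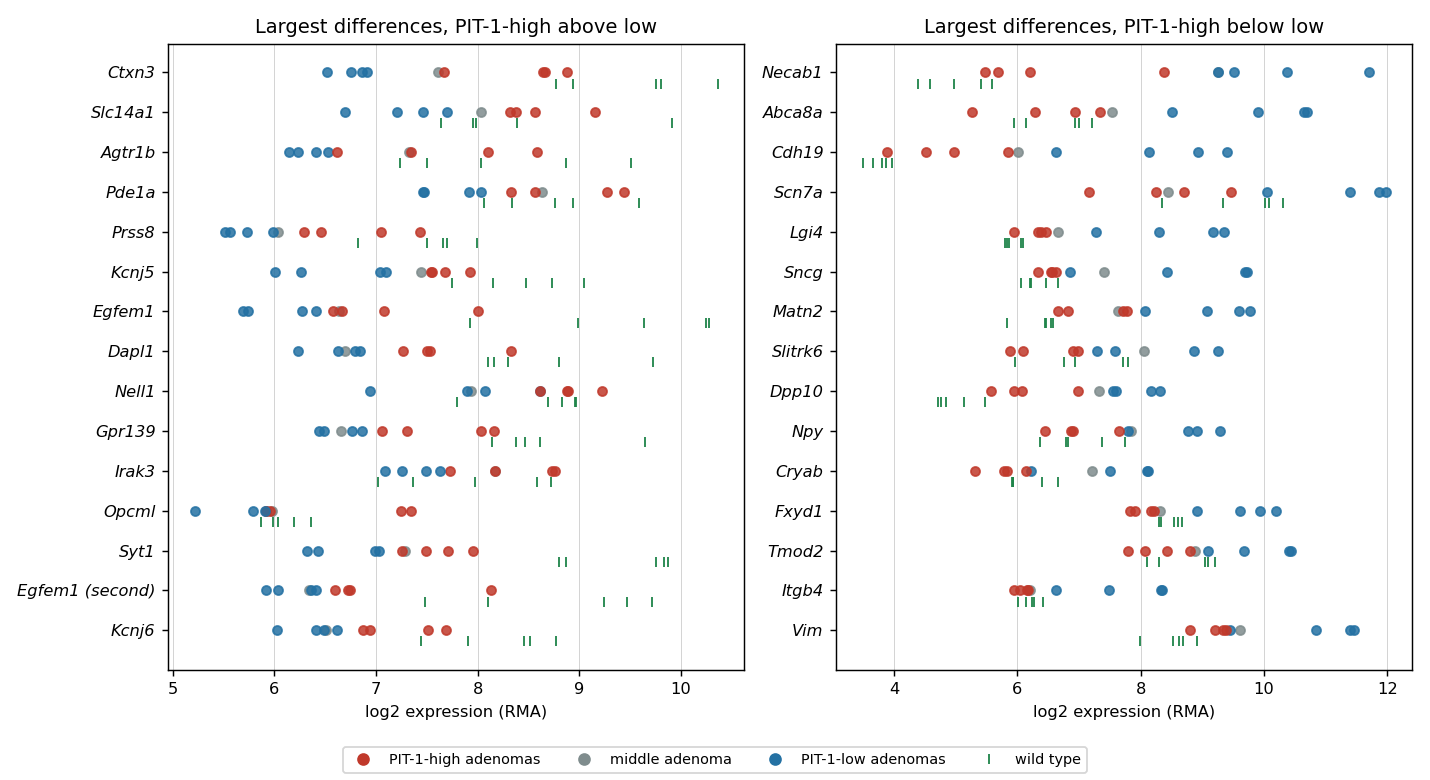
Log2 expression of the 15 named probe sets with the largest non-overlapping difference in each direction, higher in PIT-1-high adenomas on the left and lower on the right, with 1 dot per adenoma (red PIT-1-high, blue PIT-1-low, grey adenoma 1) and green ticks for the 5 wild-type pituitaries. On the right the PIT-1-low dots spread widely, as for Cdh19, from 6.63 to 9.40, while wild type stayed at 3.76 ± 0.19.

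The differences in the other direction were larger. Necab1, a neuronal calcium-binding protein, was 6.21, 5.48, 8.38 and 5.69 in adenomas 3, 4, 5 and 6, and 9.25, 10.36, 11.70 and 9.51 in adenomas 2, 7, 8 and 9. Adenoma 5 stood apart from the other PIT-1-high adenomas. The wild-type mean of 4.99 ± 0.52 lay below every adenoma average, though 1 lesion of adenoma 3 was at 4.94. The difference was -3.77 ± 0.71 on the log2 scale, which is 13.6-fold, and it was -2.57 within 08, -4.84 within 09 and -2.15 at 12 months (adjusted p = 0.321 by limma).

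Cdh19, a cadherin known from the Schwann cell lineage, was 4.97, 3.89, 5.85 and 4.52 against 6.63, 8.13, 8.93 and 9.40, with wild type at 3.76 ± 0.19. Adenoma 4 was at the wild-type level and adenomas 7, 8 and 9 lay far above it. The difference was -3.47 ± 0.60, with -1.73 within 08 and -4.30 within 09. Abca8a, a transporter of the ABC family, was 6.29, 5.27, 7.34 and 6.93 against 8.50, 9.90, 10.69 and 10.64, which was -2.20 within 08 and -3.48 within 09. Scn7a, an atypical sodium channel found in glia, was 8.24, 7.16, 9.46 and 8.70 against 10.05, 11.39, 11.98 and 11.87, and its wild-type level of 9.62 ± 0.80 lay between the groups. Lgi4, a secreted protein of Schwann cells needed for myelination, was 6.34, 5.95, 6.47 and 6.38 against 7.27, 8.30, 9.17 and 9.36, with wild type at 5.93 ± 0.14. In these 4 genes, adenoma 2 was the lowest of the PIT-1-low adenomas.

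Sncg, which encodes gamma-synuclein, was 6.56, 6.33, 6.62 and 6.54 in adenomas 3, 4, 5 and 6, and 6.85, 8.43, 9.68 and 9.72 in adenomas 2, 7, 8 and 9. The PIT-1-high values lay close to wild type (6.32 ± 0.24), and adenoma 2 was nearer to them than to adenomas 7, 8 and 9. The difference of -2.16 ± 0.56 was -0.34 within 08 and -2.74 within 09. Vim, the intermediate filament vimentin, showed the same arrangement with 9.39, 8.79, 9.33 and 9.20 against 9.44, 10.84, 11.40 and 11.46 (-0.27 within 08 and -2.04 within 09). Itgb4, an integrin subunit, was 6.03, 5.94, 6.16 and 6.18 against 6.63, 7.49, 8.33 and 8.35, and Fxyd1, a regulator of the sodium pump, 8.16, 7.83, 7.91 and 8.22 against 8.92, 9.60, 9.94 and 10.19. Fxyd1 differed by -1.63 ± 0.25, with an adjusted p of 0.291 by limma that other probe sets of the lower side shared.

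Dpp10, an auxiliary subunit of potassium channels, departed from this arrangement. It was 6.07, 5.57, 6.99 and 5.95 against 8.16, 8.31, 7.59 and 7.56, so that adenoma 2 was the second highest, and the difference of -1.76 ± 0.30 was -1.95 within 08 and -1.87 within 09 (wild type 4.99 ± 0.32). Npy, the neuropeptide Y gene, differed by -1.72 ± 0.34, Cryab, a small heat shock protein, by -1.72 ± 0.39, Tmod2, a tropomodulin, by -1.63 ± 0.32, Slitrk6, a neuronal adhesion protein, by -1.78 ± 0.46, and Matn2, a matrix protein named through the study's gene list, by -1.89 ± 0.40. Of the 56 lower probe sets with a difference over 2-fold, the wild-type mean was nearer to the PIT-1-high mean for 50, whereas over all 593 non-overlapping lower probe sets this held for 51.6%, no more than the 53.4% of all probe sets.

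Since several of these genes are known from glia of peripheral nerve, a list of 23 Schwann cell genes was drawn up after the values had been seen, and it is given as a description only. Of its 21 measured members, 19 had a lower mean in the PIT-1-high adenomas and 8 did not overlap between the groups, none being called (median difference -0.28, against 0.02 over all probe sets, of which 2.03% were lower without overlap). The median of the list was -0.15 within 08, -0.41 within 09 and -0.52 at 12 months. Besides Cdh19, Scn7a and Lgi4, the non-overlapping ones were Erbb3, the neuregulin receptor (-1.38 ± 0.34), L1cam, a neural adhesion molecule (-1.25 ± 0.31), Gfra3, a receptor of the GDNF family (-0.98 ± 0.21), Cnp (-0.32 ± 0.11) and Ncam1 (-0.28 ± 0.08). Pmp22, a myelin protein, was 8.19, 6.74, 7.58 and 7.53 against 7.73, 9.26, 9.91 and 9.87 and thus overlapped through adenoma 2, with a difference of -1.68 ± 0.48. Of the other members with overlap, the transcription factors Sox10 and Foxd3 differed by -0.28 ± 0.14 and -0.08 ± 0.07 and Mbp, a myelin protein, by 0.18 ± 0.12. Mag, Prx, Egr2 and Pou3f1 differed little, by -0.07, -0.07, -0.05 and 0.05. Ngfr, Dhh and Mal differed by -0.22, -0.24 and -0.26, and Gap43 and S100b by -0.84 and -0.71. The mean level of the list was 6.29 to 6.56 in PIT-1-high, 6.76 to 7.60 in PIT-1-low and 6.45 to 6.61 in wild-type samples, with adenoma 2 at 6.76 and adenomas 7, 8 and 9 at 7.26, 7.60 and 7.54. How far cells of this type enter the differences was not tested.

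**Figure D3:**
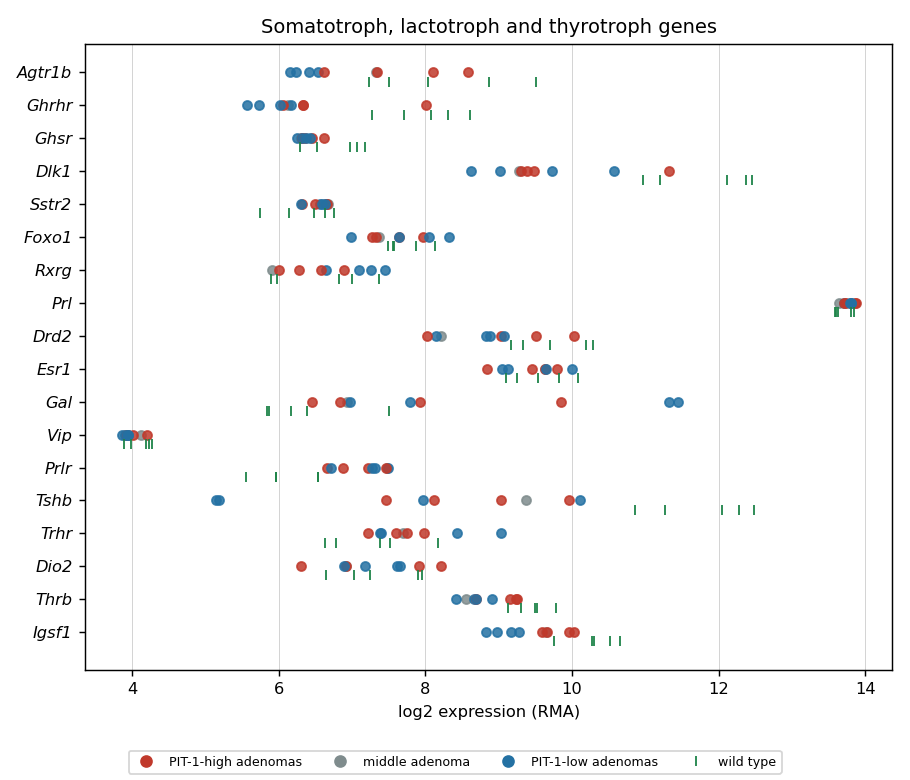
Log2 expression of the measured somatotroph, lactotroph and thyrotroph genes, with 1 dot per adenoma (red PIT-1-high, blue PIT-1-low, grey adenoma 1) and green ticks for the 5 wild-type pituitaries. Apart from Agtr1b and Igsf1 the groups overlapped, and Prl stayed between 13.64 and 13.87 in all adenomas.

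The other genes of the PIT-1 lineages lay on either side. Of the 6 measured somatotroph genes, 4 had the higher mean in the PIT-1-high adenomas and 0 did not overlap (median difference 0.05, with 0.38 within 08 and -0.23 within 09). Ghrhr, through which the hypothalamus drives growth hormone release, was 6.05, 6.33, 8.00 and 6.33 in adenomas 3, 4, 5 and 6, and 6.17, 5.74, 5.56 and 6.02 in adenomas 2, 7, 8 and 9. Adenoma 5 alone reached the wild-type level of 7.99 ± 0.52, and the difference was 0.81 ± 0.39 (adjusted p = 0.623 by limma). Dlk1, a Notch-related membrane protein of somatotrophs, was highest in the same adenoma at 11.32, while the others lay between 8.62 and 10.57. Rxrg, a retinoid receptor, lay on the opposite side with -0.67 ± 0.22, as did Foxo1 with -0.19. Ghsr, the ghrelin receptor, and Sstr2, a somatostatin receptor, differed by 0.09 ± 0.09 and 0.01 ± 0.11.

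Prl, the prolactin gene and a textbook target of PIT-1, was 13.74, 13.86, 13.71 and 13.87 in adenomas 3, 4, 5 and 6, and 13.71, 13.81, 13.80 and 13.79 in adenomas 2, 7, 8 and 9. The groups overlapped and the difference was 0.02 ± 0.07, and all values lay near the table's highest value of 14.09. Its promoter is shown because PIT-1 acts on this gene. It is given from RefSeq (build GRCr8, chr17:38298168-38298467, minus strand, from 250 bases before to 50 bases after the start), with the match to TATNCAT, a core of the PIT-1 site, in capitals as it reads on the other strand (ATGNATA).
Prl promoter: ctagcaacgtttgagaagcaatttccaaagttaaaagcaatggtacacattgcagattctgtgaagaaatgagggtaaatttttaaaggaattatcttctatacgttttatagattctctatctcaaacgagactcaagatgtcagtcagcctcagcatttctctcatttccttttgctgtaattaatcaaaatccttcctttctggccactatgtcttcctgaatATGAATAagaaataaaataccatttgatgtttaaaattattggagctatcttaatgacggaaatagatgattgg
The match starts at position -24 from the start. TATNCAT on either strand was held by 9.88% of the 33469 promoters in RefSeq's table and by 6.81% of the 12621 promoters of genes named on the array. Promoters of the non-overlapping genes held it in 17 of 288 cases on the higher side (5.90%) and in 7 of 242 on the lower side (2.89%), and the 10 promoters found for the genes of the largest higher differences and the 10 for those of the largest lower ones held 0. Among promoters of the somatotroph, lactotroph and thyrotroph lists, 3 of 19 held it (15.8%). These letters mark a sequence and not a bound site.

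Of the 7 lactotroph genes, 4 had the higher mean in the PIT-1-high adenomas (median difference 0.02). Agtr1b was the non-overlapping one, where 2.26% of all probe sets were higher without overlap. Drd2, the dopamine receptor, was 9.03, 9.51, 8.02 and 10.03 against 8.14, 8.89, 8.82 and 9.08, and Esr1, the estrogen receptor, differed by -0.02 ± 0.26. Vip and Prlr differed by 0.11 and -0.14, both with overlap. Gal, the galanin gene, was 7.93, 6.46, 9.85 and 6.84 against 6.97, 7.79, 11.45 and 11.32, so that adenomas 8 and 9 stood apart on the low side and adenoma 5 on the high side. Its difference of -1.61 ± 1.14 was 1.11 within 08 and -3.35 within 09.

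Thyrotroph genes had a median difference of 0.41 over 5 measured members, of which 4 had the higher mean in the PIT-1-high adenomas and 0 were called. Igsf1, a membrane protein of the PIT-1 lineages, was 9.60, 9.96, 9.66 and 10.03 in adenomas 3, 4, 5 and 6, and 9.28, 9.17, 8.98 and 8.82 in adenomas 2, 7, 8 and 9. The groups did not overlap, with wild type above them at 10.30 ± 0.34, and the difference was 0.75 ± 0.13 (adjusted p = 0.319 by limma), being 0.46 within 08 and 1.04 within 09. Thrb, a thyroid hormone receptor, differed by 0.41 ± 0.15, and adenoma 3 with 8.69 lay below adenoma 9 with 8.91. Tshb, the beta subunit of thyrotropin, was 9.96, 8.11, 9.03 and 7.47 against 10.11, 5.19, 5.14 and 7.96. Adenoma 2, a PIT-1-low adenoma, thus held the highest Tshb of the 9, and the sign of the difference turned from -1.07 within 08 to 1.37 within 09. The remaining list members, Trhr and Dio2, differed by -0.42 and 0.01, both with overlap. Thra, the other thyroid hormone receptor, which was not on the thyrotroph list, did not overlap (0.44 ± 0.13).

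**Figure D4:**
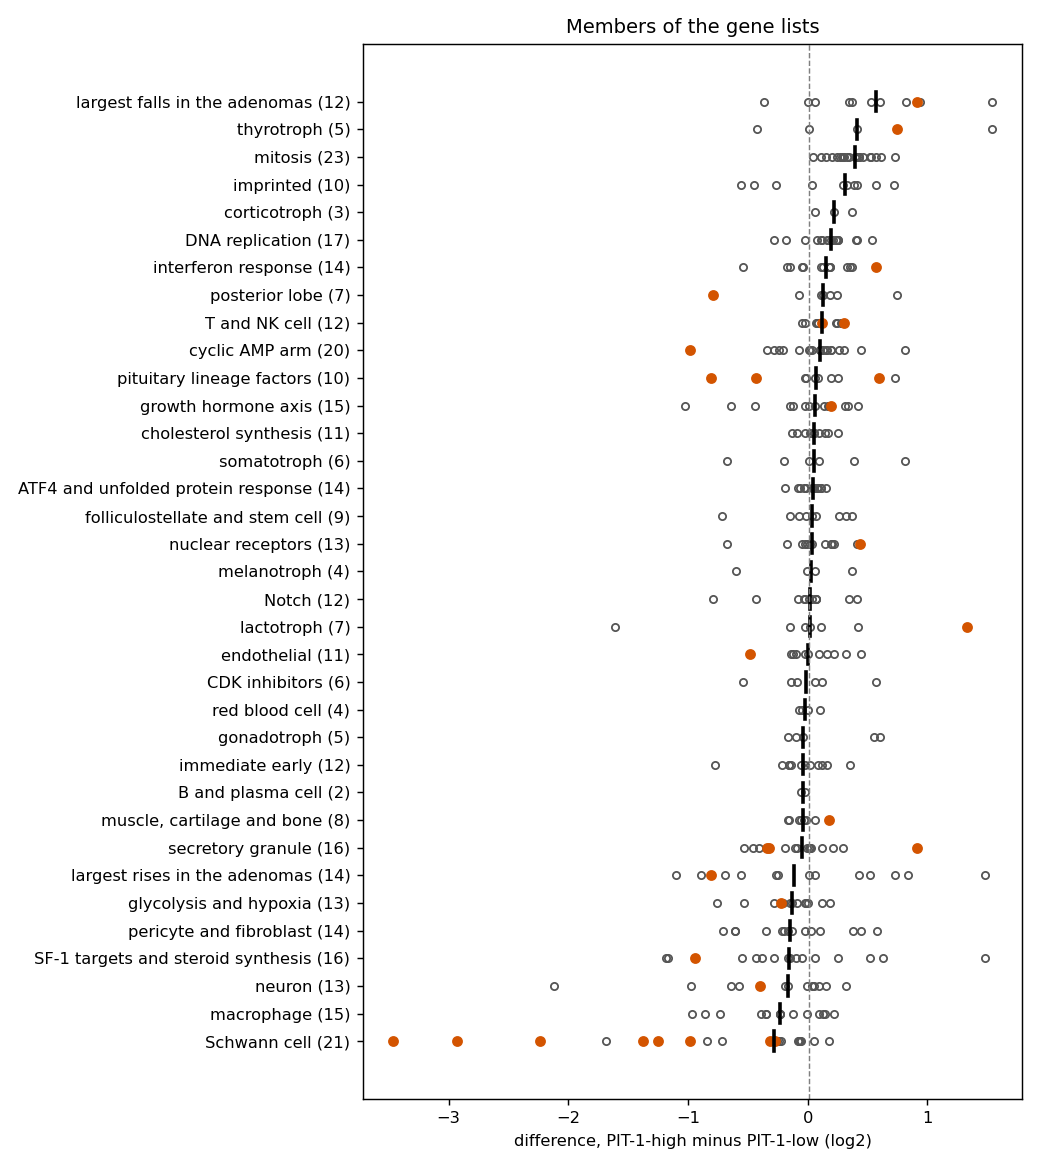
Difference between PIT-1-high and PIT-1-low adenomas (log2) for the measured members of each gene list, with filled dots for members whose groups did not overlap, open dots for the others, black bars for list medians and the number of measured members in brackets. The Schwann cell list, chosen after its values were seen, reaches to -3.47, and the dashed line marks the median over all probe sets, 0.02.

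Gonadotroph genes did not part the groups. Cga averaged 13.7 in the PIT-1-high and 13.8 in the PIT-1-low adenomas, near the top of the scale and above the wild-type mean of 12.9, and Nr5a1 differed by -0.10 ± 0.18. Lhb differed by 0.61 ± 0.23 and Fshb by 0.55 ± 0.77, both with overlap. The mean level of the 5 measured genes was 9.62 to 10.25, 9.23 to 10.27 and 9.50 to 10.60 in PIT-1-high, PIT-1-low and wild-type samples. Pomc, the corticotroph and melanotroph hormone gene, stood apart in adenoma 7 with 11.15, against 6.80 to 8.89 in the other adenomas of either group, and Oacyl, a melanotroph gene, was also highest there.

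Genes that earlier results of these arrays gave as the largest falls in the adenomas tended to be higher in the PIT-1-high ones, and since that list was chosen on these samples it is no independent evidence. The mean was higher in 11 of 12 (median 0.57, but 0.15 within 08, 1.13 within 09 and 0.19 at 12 months), with values such as 0.94 ± 0.35 for the desmosome gene Dsp. Its mean level was 7.02 to 7.29 in PIT-1-high, 6.12 to 6.99 in PIT-1-low and 8.78 to 9.82 in wild-type samples. At the probe set read for each gene, only Syt1 did not overlap, where 2.26% of all probe sets were higher without overlap. Further probe sets of Lrp1b, another gene of the list, were also higher without overlap. The largest rises of the adenomas were split evenly, 7 on either side with a median of -0.12, and Cyp11a1, the enzyme that starts steroid synthesis, was 10.42, 10.61, 8.34 and 7.50 against 7.50, 10.04, 5.89 and 7.51.

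Among pituitary lineage factors, Neurod1 was lower in every PIT-1-high adenoma, with 9.79, 8.57, 9.63 and 9.50 against 10.14, 10.63, 9.93 and 10.03 (wild type 6.52 ± 0.39). Its difference was -0.81 ± 0.26. Isl1 lay on the same side with -0.43 ± 0.11, and Pax6, an eye and endocrine factor, on the other with 0.59 ± 0.16. Six6 overlapped with 0.73 ± 0.29, and the list as a whole was balanced, with 6 of 10 higher and a median of 0.07. In the cyclic AMP arm, through which releasing hormone acts on somatotrophs, 14 of 20 were higher (median 0.11, with -0.01 within 08 and 0.18 within 09). Adcy8, an adenylyl cyclase, did not overlap on the lower side with 5.38, 5.42, 5.41 and 5.44 against 5.62, 6.51, 6.73 and 6.70. In the growth hormone axis 9 of 15 were higher, Socs3 did not overlap (0.20 ± 0.09), and Ghr, the growth hormone receptor, was -1.02 ± 0.32 with overlap. Of 16 secretory granule genes, 7 were higher. Rab3a and Ptprn2 did not overlap on the lower side, with -0.32 ± 0.11 and -0.34 ± 0.12, and Syt1, described above, did not overlap on the higher side. For these lists the background is that 2.26% of all probe sets were higher and 2.03% lower without overlap.

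All 23 mitosis genes had the higher mean in the PIT-1-high adenomas, with a median difference of 0.40, and in 0 of them did the groups part. The direction was not shared within the numbers that start with 09, where the median was -0.31, against 0.81 within 08. Adenoma 9 had the lowest mean level of these genes, 5.99, against 6.53 to 7.75 in the PIT-1-high and up to 7.36 in the other PIT-1-low adenomas, and without it the median was 0.11. Pbk, a mitotic kinase, shows this, with 8.57, 7.76, 8.76 and 7.10 against 7.49, 8.01, 7.93 and 5.85. DNA replication genes followed, 14 of 17 higher with a median of 0.20, and 0 did not overlap. The wild-type glands were at 5.26 to 5.63 for mitosis genes, below all adenomas.

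Markers of other cells were compared in the same way. Of 15 macrophage genes, 11 were lower in the PIT-1-high adenomas and 0 did not overlap (median -0.23, with -0.02 within 08, -0.61 within 09 and -0.04 at 12 months). Cd163 was 6.24, 6.28, 7.19 and 5.83 against 7.06, 7.06, 7.57 and 7.72, so that adenoma 5 reached the low group, and the mean level of the list was 6.76 to 7.62 in PIT-1-high, 7.35 to 7.68 in PIT-1-low and 6.25 to 6.81 in wild-type samples. T and NK cell genes were higher in 10 of 12 by small amounts (median 0.12, but -0.08 at 12 months). Their mean levels overlapped, with 5.39 to 5.80 in PIT-1-high and 5.45 to 5.49 in PIT-1-low adenomas. Cd2 and Cd8b did not overlap, on the higher side. Over all probe sets, 2.26% were higher and 2.03% lower without overlap. Of 13 neuron genes, 8 were lower, and Gad2, which makes GABA, was 9.76 in adenoma 8 and 7.20 in adenoma 9 but 4.28 to 5.39 in the remaining PIT-1-high and PIT-1-low adenomas. Gfap, an astrocyte and glial filament gene, did not overlap (-0.79 ± 0.22), whereas Slc1a3, another glial gene, was 0.74 ± 0.31. Both were on the posterior lobe list, of which 5 of 7 measured genes were higher (median 0.13). Eng, an endothelial gene, did not overlap with -0.48 ± 0.13, and the 11 endothelial genes had a median of 0.01. Of 14 pericyte and fibroblast genes, 9 were lower and 0 did not overlap. Their median was -0.15, with 0.07 within 08, -0.05 within 09 and -0.36 at 12 months, and the collagen gene Col1a1 differed by -0.71. The part of all these cells in the differences above was not tested. Cdkn1b itself was 9.35, 9.19, 8.99 and 9.30 against 9.14, 9.29, 9.22 and 9.55, a difference of -0.09 ± 0.11.

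Lesions with the same sample number allow a look at the score inside a number, where age, sex and number are the same. This uses only deviations from the averages that set the groups, but the score and the genes are again from the same arrays. In the 5 numbers with several lesions (12 lesions), no probe set passed limma's test of the slope on the score with the number as a block (lowest adjusted p = 0.0720), and 1259 had a positive and 1049 a negative slope at an unadjusted p under 0.05. The slope was positive for 64.8% of the 660 probe sets that were higher without overlap, for 42.2% of the 593 lower ones and for 53.1% of all.

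Ghrhr, singled out after its values were seen, was higher in the lesion with the top score than in that with the bottom score in 5 of 5 numbers, by 0.81, 1.16, 1.30, 2.33 and 0.34 in adenomas 1, 2, 3, 5 and 9, and the slope was 1.60 ± 0.26 per log2 unit of score (adjusted p = 0.264 by limma). In adenoma 9 the lesions were close in score (11.31 and 11.18), and Pou1f1 was lower in the top one (-0.09). The 3 lesions of adenoma 5 had Ghrhr at 6.69, 8.29 and 9.02 as Gh1 went from 13.45 through 13.83 to 14.01. The other somatotroph genes were less uniform, as Dlk1, Foxo1 and Sstr2 were higher in 4 of 5 numbers, Ghsr in 3 of 5 (slope -0.03 ± 0.16) and Rxrg in 2 of 5 (-0.25 ± 0.41). Pde1a was also higher in 5 of 5, with a slope of 0.91 ± 0.11 (adjusted p = 0.102 by limma), and Ctxn3 in 4 of 5, with 1.12 ± 0.25. Several further named probe sets were higher in 5 of 5, among them those of Nell1, Irak3, Kcnj6, Egfem1, Drd2 and Cd2.

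Of the lower genes, Cdh19 was lower in the lesion of the top score in 4 of 5 numbers and higher in adenoma 2, and its slope was -1.75 ± 0.60. Most of it came from adenomas 1 and 3. In adenoma 3, the lesions with Gh1 at 13.42 and 13.26 had Cdh19 at 3.86 and 3.87, and the lesion with Gh1 at 12.31 had 7.18. In the same lesions Abca8a was 4.63, 5.50 and 8.72, Scn7a 6.91, 7.39 and 10.43, and Sncg 5.83, 5.85 and 7.99. Adenoma 3, a PIT-1-high adenoma, thus held 1 lesion whose values of these genes lay near those of the PIT-1-low adenomas.

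**Figure D5:**
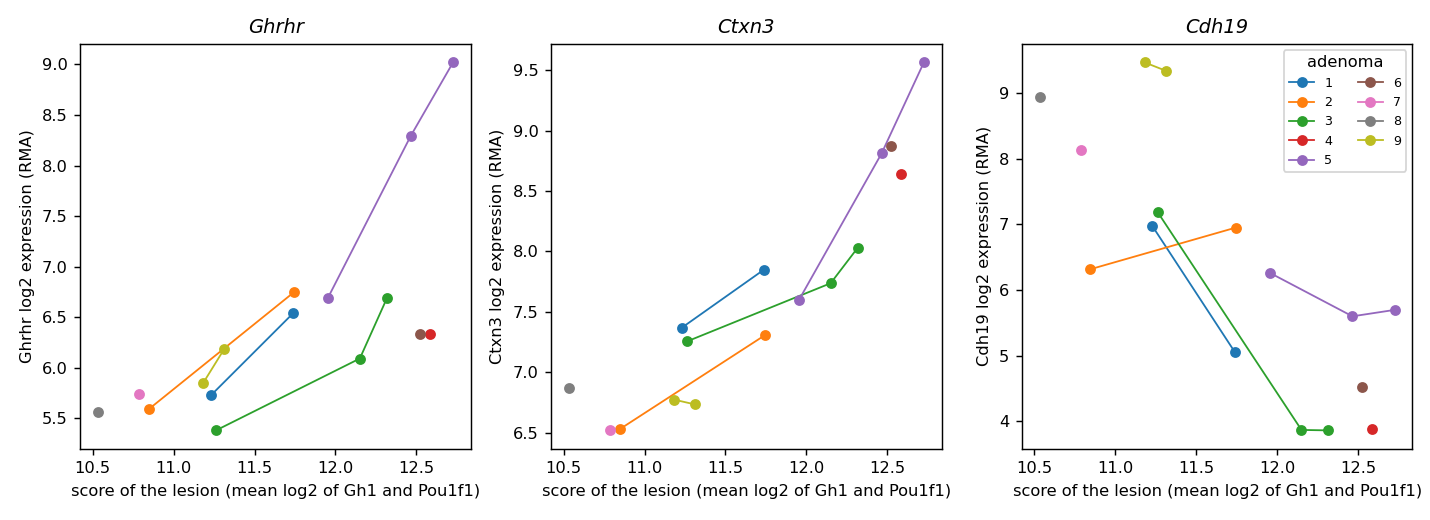
Log2 expression of Ghrhr, Ctxn3 and Cdh19 in each of the 16 lesions against the score of that lesion (mean log2 of Gh1 and Pou1f1), with lesions of the same adenoma in the same color and joined by a line. On all 5 lines Ghrhr was higher in the lesion with the top score than in that with the bottom score, and for Cdh19 the lesions of adenomas 1 and 3 lay furthest apart.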

How the data were processed

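The data are whole-transcript arrays for the rat (Affymetrix) of tumor lesions and wild-type pituitaries. RNA was taken from dissected tissue with an RNeasy kit. Per the submitters' processing notes and the study's methods, the authors made gene-level values in Affymetrix Expression Console with RMA (sketch-quantile normalization and median polish), with versions not given in the sources used here, and the deposited values are log2 intensities. Quantile normalization gives all arrays nearly 1 distribution, so array medians lay between 6.36 and 6.53 and a shift shared by all genes would not be seen. No array pair held identical values.

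Lesions of 1 sample number were averaged on the log2 scale, since the labels do not tell them apart as separate rats (the study's text speaks of more rats than numbers), and the 4 highest and 4 lowest adenomas by score were compared with limma 3.58.1 in R 4.3.3 (lmFit and eBayes, no covariates, two-sided, 6 residual and 3.01 prior degrees of freedom). Benjamini-Hochberg adjustment ran over 29212 probe sets, with calls at an adjusted p under 0.05. The members, gene lists and named-gene rule were chosen with earlier results of these data known. Named were Gh1 and Pou1f1, all measured genes of the 3 PIT-1 lineage lists, Cdkn1b, the 15 largest non-overlapping differences on each side and, of the up to 4 genes of each other list that the rule allowed, at most 2. Other genes without overlap were named after their values were seen. A gene with several probe sets was read from the one with the highest mean, except among the largest differences. Symbols came from the platform annotation (15310 probe sets) or, for 196, from the study's gene list, while 323 probe sets with several symbols and 13385 without one were not named. The test was checked on simulated data. Alternatives changed the test, covariates, samples, groups, filter and normalization. Promoters were matched by symbol for 89 of 121 named genes.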

Additional observations from a re-analysis of the deposited data

Results flagged for a closer look

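Over 366 sets of values (each named probe set in the PIT-1-high, PIT-1-low and wild-type samples), 14 held a sample that stood apart from the rest of its group by Dixon's test at the 95% level, or 3.83%, and chance flags about 1 set in 20. Adenoma 5 held 4 of the 8 in the PIT-1-high adenomas. It was high for Ghrhr at 8.00 (the others 6.05 to 6.33), for Dlk1 at 11.32 (9.31 to 9.48) and for Egfem1 at 8.14 (6.60 to 6.75), and low for Mcm2, a replication helicase subunit, at 8.25 (8.50 to 8.52). Adenoma 3 was low for Thrb at 8.69 (9.16 to 9.25) and high for Lss, an enzyme of cholesterol synthesis, at 9.09 (8.67 to 8.74). Adenoma 4 was low for L1cam at 5.14 (5.43 to 5.49) and high for Ms4a1 at 4.60 (4.50 to 4.51), the latter by a small gap. In the PIT-1-low adenomas, adenoma 7 was high for Oacyl at 8.87, and adenoma 2 was low for Gbp2, an interferon-induced GTPase, at 7.03, where adenomas 7, 8 and 9 lay between 8.08 and 8.30. In the wild-type pituitaries, Nell1 was low at 7.80, Matn2 low at 5.84, Cd163 low at 5.25 and Mcm5 high at 6.71, each in another gland.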

How the results depend on the processing

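With 4 adenomas against 4, 0 probe sets were called by limma with a trend and robust fitting, the t-test of the methods, sex, age or the number prefix as covariate, lesions as separate arrays, wild type in the fit, array weights, median centring, renewed quantile normalization, or groups by Gh1 alone or by Pou1f1 alone (adenoma 1 in place of adenoma 8), with lowest adjusted p-values from 0.0628 to 1.00. Comparing the 3 highest with the 3 lowest adenomas gave 12 calls higher and 103 lower (7 and 88 over 2-fold), and 2294 and 2208 non-overlapping probe sets. The slope on the score over 9 adenomas gave 1 call higher (0 over 2-fold) and 1 lower (1 over 2-fold). Among 12-month adenomas only, an alternative chosen after seeing the data that sets adenoma 5 alone against 3, there was 1 call higher (1 over 2-fold), 0 lower, and 7922 and 9218 probe sets without overlap. The number prefix gave 8043 and 6867 within 08 and 9625 and 7682 within 09, with no call, as groups of 1 and 3 overlap less often than groups of 4. In these fits the lone adenoma is assumed to vary like the others. A filter on the mean above the median left 282 and 363 non-overlapping, as fewer probe sets were tested, and groups by Pou1f1 alone 368 on the lower side. Leaving out each adenoma gave 0 to 14 calls higher, 0 to 185 lower, 0 to 10 and 0 to 116 over 2-fold, and 882 to 1992 and 786 to 1706 non-overlapping ones. Without adenoma 2, 81 of the 185 lower calls were among the 593 that did not overlap with all adenomas. With age as a covariate the lowest adjusted p was 1.00, and 14 of 155 differences of named genes and list medians turned sign; within 08, within 09 and inside a number 37, 24 and 41 did. The causes were not tested. No paired analysis was possible because the high and low adenomas share no replicate number. The small number of adenomas limits the precision.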

Other observations

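Whether the difference between PIT-1-high and PIT-1-low adenomas itself differed between numbers that start with 08 and 09, or between males and females, was put to an interaction term in limma over all 29212 probe sets. The fits rest on arms of 1 adenoma (adenoma 2 as the PIT-1-low one of 08 and of the males, adenoma 6 as the PIT-1-high one of 09), so that a p above the threshold says little. No probe set passed in either (lowest adjusted p = 0.458 and 0.202), while 1639 and 2016 passed at an unadjusted p under 0.05. Among calls made without adenoma 2, when the PIT-1-low group held only females of 12 months, were Tyrp1, a melanin enzyme (-3.97 on the log2 scale), and Il33, an alarmin (-1.52), on the lower side, and Slc6a14, an amino acid transporter (1.88), on the higher side. These were picked after their values were seen.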
